A study of Mus musculus with 2 samples.

Results

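Immediate early genes and heat shock genes were described in cells of subcutaneous MC38 tumors. The list held 33 of the 32285 genes in the count matrices, 22 immediate early genes and 11 heat shock genes, taken by their symbols, and every symbol was found in both libraries. Each gene was followed across 8 classes of cells gated by marker genes and across 2 libraries.

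Immediate early genes are transcribed within minutes of a stimulus because the factors that switch them on are already present in the cell, and many of their products (FOS, JUN and EGR proteins) are themselves transcription factors, while others (*Zfp36*, *Dusp1*, *Nfkbia*) end the response by destroying mRNA, removing phosphate from MAP kinases or holding NF-κB in the cytoplasm. Heat shock genes encode chaperones that keep other proteins folded. *Hspa8*, *Hsp90ab1*, *Hspd1* and *Hspe1* are made in nearly all growing cells, whereas *Hspa1a*, *Hspa1b* and *Hspb1* are held low and are switched on by heat shock factor 1, which binds repeated inverted GAA units in their promoters. In tumors, macrophages receive many signals that act through the immediate early genes, and both groups of genes are also known to respond to enzymatic dissociation of tissue at warm temperature.

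The promoters are shown first because *Hspa1a*, *Hspa1b*, *Hspb1* and *Hsph1* passed 1.5-fold between the libraries in at least 1 of the large classes below, and because *Fos* and *Fosb* are AP-1 genes that recur in the comparisons. Each window runs from 250 bases before to 50 bases after the annotated start of the gene (RefSeq, GRCm38.p6, read along the strand of the gene) and has 300 bases. In the windows of the heat shock genes, capitals mark matches to GAANNTTC, 2 inverted units of the heat shock element, or to the same units in the opposite order (TTC first, then GAA after 2 bases). *Hspa1a* lies at chr17:34972107-34972406 (minus strand), *Hspa1b* at chr17:34959189-34959488 (minus strand), *Hspb1* at chr5:135887669-135887968 (plus strand) and *Hsph1* at chr5:149636287-149636586 (minus strand).
Hspa1a: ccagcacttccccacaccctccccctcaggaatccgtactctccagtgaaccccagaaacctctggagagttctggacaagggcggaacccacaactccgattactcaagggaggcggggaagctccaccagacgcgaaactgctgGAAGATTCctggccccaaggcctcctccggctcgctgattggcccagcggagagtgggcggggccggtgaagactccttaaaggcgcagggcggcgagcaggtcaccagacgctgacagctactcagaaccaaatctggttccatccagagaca
Hspa1b: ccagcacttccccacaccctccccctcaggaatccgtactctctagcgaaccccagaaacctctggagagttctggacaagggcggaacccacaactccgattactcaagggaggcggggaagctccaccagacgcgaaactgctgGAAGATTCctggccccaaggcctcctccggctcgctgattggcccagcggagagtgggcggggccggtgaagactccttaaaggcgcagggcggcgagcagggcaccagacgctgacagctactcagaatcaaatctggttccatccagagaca
Hspb1: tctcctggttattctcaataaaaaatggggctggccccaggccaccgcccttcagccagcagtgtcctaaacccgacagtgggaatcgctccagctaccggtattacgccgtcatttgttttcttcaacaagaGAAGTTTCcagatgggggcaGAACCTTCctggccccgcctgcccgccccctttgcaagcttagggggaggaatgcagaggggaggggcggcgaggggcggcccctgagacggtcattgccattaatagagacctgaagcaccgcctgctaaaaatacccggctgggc
Hsph1: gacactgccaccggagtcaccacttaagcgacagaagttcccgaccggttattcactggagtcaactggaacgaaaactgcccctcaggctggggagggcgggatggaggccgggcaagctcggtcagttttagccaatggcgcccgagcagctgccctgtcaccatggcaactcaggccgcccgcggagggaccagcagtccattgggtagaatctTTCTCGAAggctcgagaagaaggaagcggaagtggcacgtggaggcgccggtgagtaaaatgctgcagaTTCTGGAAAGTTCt
In the windows of *Fos* (chr12:85473640-85473939, plus strand) and *Fosb* (chr7:19309996-19310295, minus strand), capitals mark TGACG, the 5-base core of the cyclic AMP response element, and, in *Fos*, the TATA box TATAAA.
Fos: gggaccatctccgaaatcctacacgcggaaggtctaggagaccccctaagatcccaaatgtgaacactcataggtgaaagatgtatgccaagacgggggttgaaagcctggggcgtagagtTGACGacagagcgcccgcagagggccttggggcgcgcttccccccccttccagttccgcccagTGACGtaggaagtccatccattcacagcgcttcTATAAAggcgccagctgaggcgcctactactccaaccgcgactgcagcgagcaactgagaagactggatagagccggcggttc
Fosb: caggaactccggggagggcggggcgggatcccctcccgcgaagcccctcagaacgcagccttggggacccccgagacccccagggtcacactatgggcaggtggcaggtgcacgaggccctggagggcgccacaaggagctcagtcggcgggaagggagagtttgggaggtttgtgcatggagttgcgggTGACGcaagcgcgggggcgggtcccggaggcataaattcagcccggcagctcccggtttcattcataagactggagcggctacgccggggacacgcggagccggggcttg
The windows of *Hspa1a* and *Hspa1b* were identical at 296 of 300 bases (98.7%), with the same match GAAGATTC starting at base 147 of both. Their transcripts are nearly identical too, so how the counting split reads between these paralogs is uncertain, and their separate values carry that limit throughout.

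A window was found for 27 of the 33 members, all but *Fosl1*, *Egr1*, *Ier2*, *Hspa8*, *Hsp90aa1* and *Hsp90ab1*. All motifs were searched on both strands, and their matches can overlap. GAANNTTC, in either order of its units, was present in 7 of 8 heat shock genes with a window, in 1 of 19 immediate early genes (*Jun*), and in 17.0% of the windows of all 27025 genes. The longer element, in which 1 more unit follows at the same spacing, was in 3 of the 8 heat shock genes, *Hspd1*, *Hspe1* and *Hsph1*, against 0.662% of all genes. *Hspd1*, the mitochondrial chaperonin, and *Hspe1*, its lid, showed the same stretch on opposite strands, since they are transcribed away from each other from a shared promoter. TGACG was in 11 of the 19 immediate early genes and 5 of the 8 heat shock genes against 23.0% of all genes, and the full palindrome TGACGTCA, which contains it, was in 3 of the 19 (*Btg2*, *Dusp1* and *Ppp1r15a*) against 2.03%. TATAAA was in 5 of the 19 and 0 of the 8 against 15.7%, and the serum response element core (CArG box) in 1 of the 19, *Zfp36*, against 1.81%. The AP-1 site TGANTCA was in 0 of the 19 and 0 of the 8, against 8.97% of all genes. A match is a description of the letters in the window, and windows of neighbouring genes can overlap.

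The tumors had been grown from MC38 cells, a mouse colon carcinoma line, injected under the skin of female mice 6 to 8 weeks old that were either wild type (Lmo7+/+) or carried a deletion of *Lmo7* in all their cells (Lmo7-/-). The implanted MC38 cells carried no such deletion in either group, so the genotypes differ in the host cells and not in the tumor cells themselves. Tumors were dissociated with enzymes on a heated instrument at 37 °C, and red cells were lysed. The authors' methods give about 10000 live sorted cells as the input for droplet sequencing, with both libraries pooled for the run. Only these groups were used, and no drug or other treatment separated the groups, and the number of mice behind each library is not given in the sources used here.

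With 1 library per genotype, genotypes could not be tested against each other, and p-values are not given. The files deposited by the authors hold raw counts of unique molecular identifiers (UMIs, tags that mark single captured RNA molecules). The Lmo7+/+ library held 16208 cells and 98582479 UMIs, and the Lmo7-/- library 15163 cells and 80648345 UMIs, with 279 cell barcodes in common. Each library thus held more cells than the input of about 10000 given in the methods, and this difference was not examined. Filtering left 13542 and 11860 cells, of which 11625 and 10545 (85.8% and 88.9%) passed the gate of a single class. Scrublet marked 11.1% and 11.7% of the cells outside every class as doublets, against 2.90% and 2.60% of all cells kept. The classes, in the order Lmo7+/+ and Lmo7-/-, were tumor cells (6385 and 4776 cells), macrophages (3973 and 4512), monocytic myeloid-derived suppressor cells (M-MDSCs, 494 and 361), T cells (449 and 629), dendritic cells (128 and 110), fibroblasts (74 and 63), endothelial cells (65 and 60) and NK cells (57 and 34). Every host class held all markers of its own list at 5 or more counts per 1000000 UMIs (CPM). The gate chose host cells by markers of these lists, so these levels do not test the class names. Tumor cells were gated by low levels of other classes' markers, with at most 1000 leukocyte, under 1500 endothelial and under 15000 fibroblast CPM. Of the 20 epithelial and MC38 markers, 7 and 6 reached 5 CPM there. These markers summed to 161 and 150 CPM in tumor cells and 52.8 and 44.7 CPM in macrophages. In T cells they summed to 199 and 236 CPM and in dendritic cells to 221 and 168 CPM. The name of the tumor cell class thus rests on the low levels of other markers. *Lmo7* itself had 47 UMIs over 5240 host cells in the Lmo7+/+ library and 41 over 5769 host cells in the other (1.73 and 1.53 CPM). Endothelial cells had the highest host level, at 14 and 11 UMIs (42.7 and 34.4 CPM), and tumor cells had 19.4 and 15.5 CPM. *Lmo7* RNA was thus still counted in host cells of the library labelled Lmo7-/-. Where the deleted stretch lies relative to the captured transcript end was not examined, and the genotype of the second library rests on its label.

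Levels are given as CPM, the UMIs of a gene among the summed UMIs of a class, and all intervals are 95% intervals for counting error only. In an average taken over a class, fewer cells with a transcript and fewer transcripts per cell cannot be told apart, so shares of cells are given separately. Values of different genes are not compared with each other, because capture differs between transcripts.

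The immediate early genes together took the largest share of UMIs in the stromal classes. In fibroblasts they made up 2.11% of UMIs in the Lmo7+/+ library and 1.92% in the library labelled Lmo7-/-, and in endothelial cells 1.74% and 1.48%. M-MDSCs followed with 1.02% and 0.98%, macrophages with 0.88% and 0.84%, dendritic cells with 0.84% and 0.78% and tumor cells with 0.79% and 0.72%. T cells, at 0.53% and 0.44%, and NK cells, at 0.45% and 0.58%, were lowest in both libraries. The 11 heat shock genes were ordered otherwise: tumor cells were highest at 0.69% and 0.68%, and the remaining classes lay between 0.41% and 0.57% in the Lmo7+/+ library and between 0.36% and 0.59% in the other.

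By gene, 12 of the 22 immediate early genes had their highest level in fibroblasts and 6 in endothelial cells, while 5 of the 11 heat shock genes had theirs in tumor cells. The *Fos* genes encode the FOS partner of the AP-1 dimer. *Fos* (ENSMUSG00000021250) stood at 2597 CPM (2444 to 2757) and 2180 CPM (2033 to 2335) in fibroblasts and at 1802 and 1402 CPM in endothelial cells. In macrophages it stood at 883 CPM (870 to 895) and 789 CPM (778 to 801), against 683 and 471 CPM in tumor cells and 132 and 85.0 CPM in T cells. *Fos* was thus lowest in lymphocytes in both libraries, with NK cells at 79.7 and 173 CPM. *Fosb* reached 1879 and 1531 CPM in fibroblasts and 891 and 644 CPM in macrophages. *Fosl1*, the FOS-family gene often raised in carcinoma cells, stood apart: tumor cells had 248 and 264 CPM, and no other class passed 33.8 CPM.

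The JUN partners differed in where they peaked. *Jun* was highest in fibroblasts, at 1854 and 1297 CPM, followed by tumor cells at 959 and 968 CPM, with macrophages at 213 and 174 CPM. *Junb* varied little, between 443 CPM in tumor cells and 838 CPM in NK cells over both libraries. *Jund* was highest in T cells, at 1099 and 1084 CPM, little above endothelial cells (1029 and 1026 CPM), and macrophages had 377 and 366 CPM. *Egr1*, a zinc finger activator induced by serum, stood at 1608 and 888 CPM in fibroblasts, 562 and 429 CPM in tumor cells and 104 and 77.2 CPM in macrophages. *Atf3*, a stress-induced repressor, peaked in endothelial cells at 644 and 363 CPM.

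**Figure D1:**
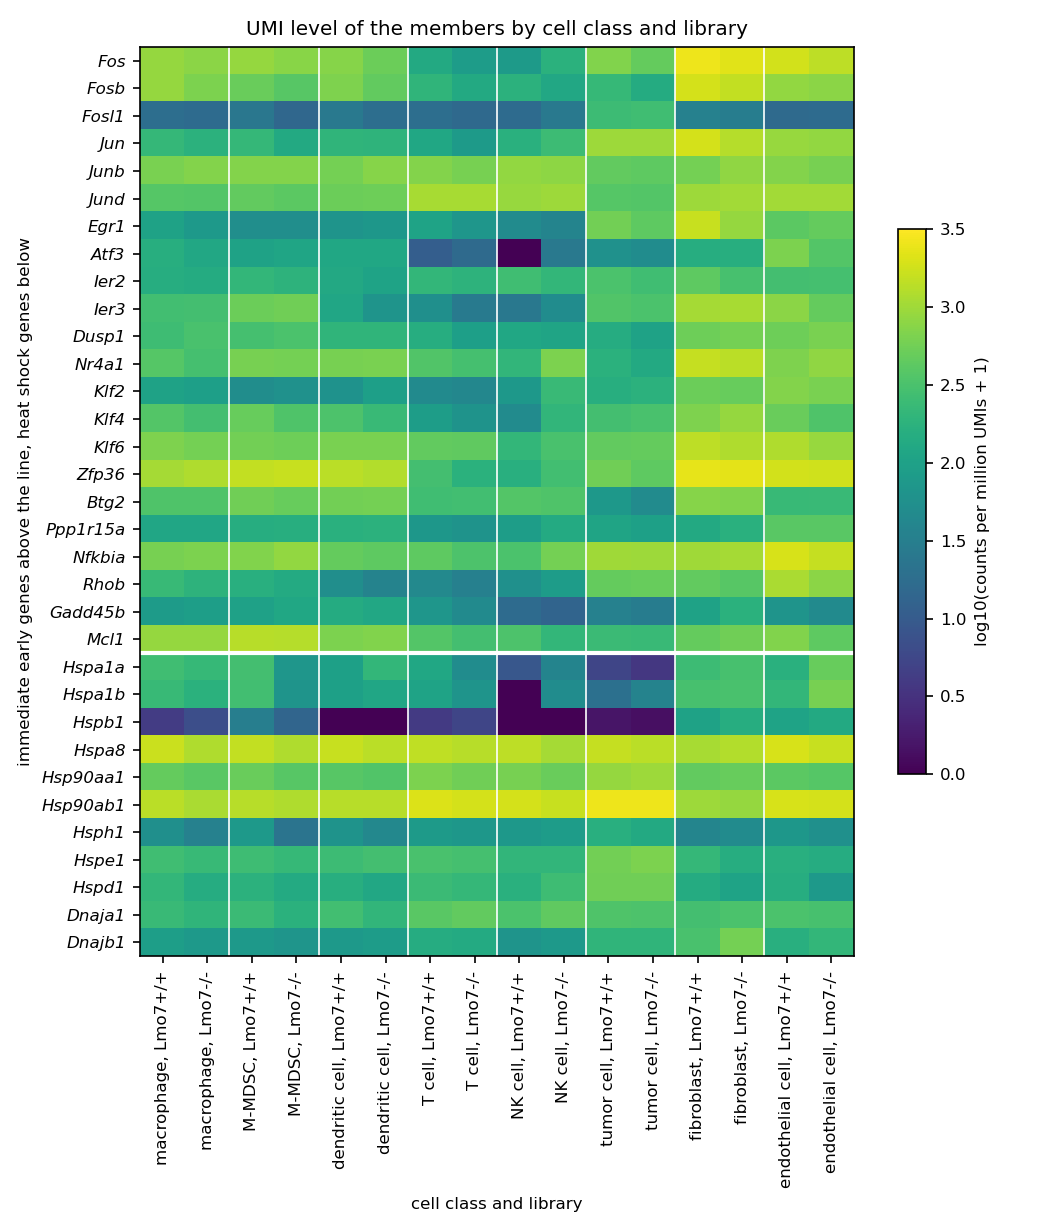
Level of each member in each cell class and library, as the base 10 logarithm of CPM plus 1 (color), with cell classes and libraries on the horizontal axis and genes on the vertical axis, immediate early genes above the line and heat shock genes below. Fibroblasts and endothelial cells are brightest for most immediate early genes, *Fosl1* is bright in tumor cells, and *Hspa1a* is nearly dark in tumor cells.

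Among the other transcription factors, *Nr4a1*, an orphan nuclear receptor, was highest in fibroblasts (1553 and 1374 CPM). *Klf2*, a factor of quiescent endothelium, was highest in endothelial cells (702 and 623 CPM). *Klf4* (673 and 885 CPM) and *Klf6* (1425 and 1196 CPM) were highest in fibroblasts. Genes that end the response had high levels in stroma as well. *Zfp36*, which destabilizes cytokine mRNA, reached 2363 and 2292 CPM in fibroblasts and 1508 and 1625 CPM in M-MDSCs. *Nfkbia*, the inhibitor of NF-κB, reached 1939 and 1539 CPM in endothelial cells, and *Dusp1*, a MAP kinase phosphatase, 534 and 629 CPM. *Mcl1*, which blocks apoptosis, was the member that peaked in M-MDSCs, at 1345 and 1286 CPM against 244 and 231 CPM in tumor cells. The rest of the list peaked in fibroblasts (*Ier2* at 434 and 306 CPM, *Ier3* at 1073 and 1111, the antiproliferative *Btg2* at 733 and 689, *Gadd45b* at 101 and 173, with dendritic cells at 142 and 124) or in endothelial cells (*Ppp1r15a*, which reverses the block of translation under stress, at 403 and 407, and the small GTPase *Rhob* at 1139 and 767).

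The inducible heat shock genes varied strongly between classes. *Hspa1a* (ENSMUSG00000091971), an inducible HSP70, was at 264 CPM (257 to 271) and 222 CPM (216 to 228) in macrophages and at 4.36 CPM (3.85 to 4.93) and 2.75 CPM (2.27 to 3.30) in tumor cells. The order of the classes was not shared between libraries, because M-MDSCs were highest in the Lmo7+/+ library (283 CPM against 68.2 CPM) and endothelial cells in the other (168 against 479 CPM). *Hspa1b* (ENSMUSG00000090877) was at 230 and 172 CPM in macrophages and 18.7 and 35.4 CPM in tumor cells. *Hspa1a* made up 53.4% (52.5% to 54.4%) and 56.3% (55.3% to 57.4%) of the UMIs of both paralogs in macrophages, against 18.9% (16.9% to 21.1%) and 7.20% (5.99% to 8.57%) in tumor cells, so the 2 genes were not counted in a constant ratio across classes. *Hspb1*, the small heat shock protein HSP27, was detected mainly in stroma, at 101 and 152 CPM in fibroblasts and 107 and 131 CPM in endothelial cells, against 3.19 and 5.99 CPM in macrophages and 0.573 and 0.400 CPM in tumor cells.

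Of the other heat shock genes, 5 were highest in tumor cells. *Hsp90ab1* was at 2605 and 2596 CPM in tumor cells, 2077 and 1878 CPM in T cells and 1351 and 1146 CPM in macrophages. *Hsp90aa1*, the inducible HSP90, was at 870 and 959 CPM in tumor cells against 474 and 397 CPM in macrophages. *Hspd1* was at 557 and 554 CPM in tumor cells against 207 and 147 CPM in macrophages, and *Hspe1* at 572 and 648 CPM against 265 and 226 CPM. *Hsph1*, the HSP110 that releases ADP from HSP70, also peaked in tumor cells, at 162 and 132 CPM. *Hspa8*, the constitutive HSP70, varied least of the list, from 1165 CPM in fibroblasts to 1788 CPM in endothelial cells over both libraries. Of the J-domain proteins that load clients onto HSP70, *Dnaja1* was highest in T cells (404 and 448 CPM) and *Dnajb1* in fibroblasts (311 and 580 CPM).

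Macrophages and tumor cells, the largest classes, were compared within each library. The median log2 ratio of macrophages over tumor cells was 0.35 and 0.31 for the 22 immediate early genes, with 13 of 22 above 0 in both libraries, and -0.88 and -1.18 for the heat shock genes, beside -0.47 and -0.55 for all genes with at least 20 counts (14151 and 13796). Scaling by TMM in place of summed UMIs raised every ratio by 0.36 and 0.46, so the medians are best read against that of all genes. A gene was called at 1.5-fold or more with at least 100 counts in both classes together. In the Lmo7+/+ library 8 immediate early and 3 heat shock genes were higher in macrophages, where 20.9% of all genes were, and 7 and 6 were lower, where 44.2% were. In the Lmo7-/- library 10 and 3 were higher (21.2% of all genes) and 6 and 7 were lower (47.4%). Under TMM scaling the immediate early genes split into 12 higher and 5 lower in the Lmo7+/+ library and 12 and 4 in the other, and the heat shock genes into 3 and 4, and 3 and 6.

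Genes higher in macrophages included *Btg2*, at 345 and 347 CPM against 71.5 and 47.9 CPM in tumor cells (log2 ratio 2.27, 2.22 to 2.33, and 2.86, 2.79 to 2.93). *Fosb* had log2 ratios of 2.00 (1.97 to 2.03) and 2.19 (2.15 to 2.24), and *Mcl1* 1.87 and 1.91. *Hspa1a* differed most, by 5.92 (5.74 to 6.10) and 6.34 (6.07 to 6.61), with *Hspa1b* at 3.62 and 2.28 and *Hspb1* at 2.48 and 3.91. Genes lower in macrophages were led by *Fosl1* (-3.81 and -4.07), *Egr1* (-2.43 and -2.47) and *Jun* (-2.17 and -2.47), and among chaperones by *Hsph1* (-1.57 and -1.96) and *Hspd1* (-1.43 and -1.91). The members of AP-1 therefore stood on opposite sides, *Fosb* with macrophages and *Jun* and *Fosl1* with tumor cells. The direction of *Jund* (-0.01 and 0.01), *Ier3* (-0.39 and -0.17), *Klf4* (0.32 and -0.11) and *Hspa8* (0.10 and -0.18) flipped under TMM scaling in at least 1 library. The 12 macrophage markers summed to 126 and 105 CPM in tumor cells, with 5 of 12 at 5 CPM in each library, and 9 of 10 fibroblast markers reached 5 CPM there, with a sum of 1526 and 1550 CPM. Their part in the tumor cell levels was not tested.

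**Figure D2:**
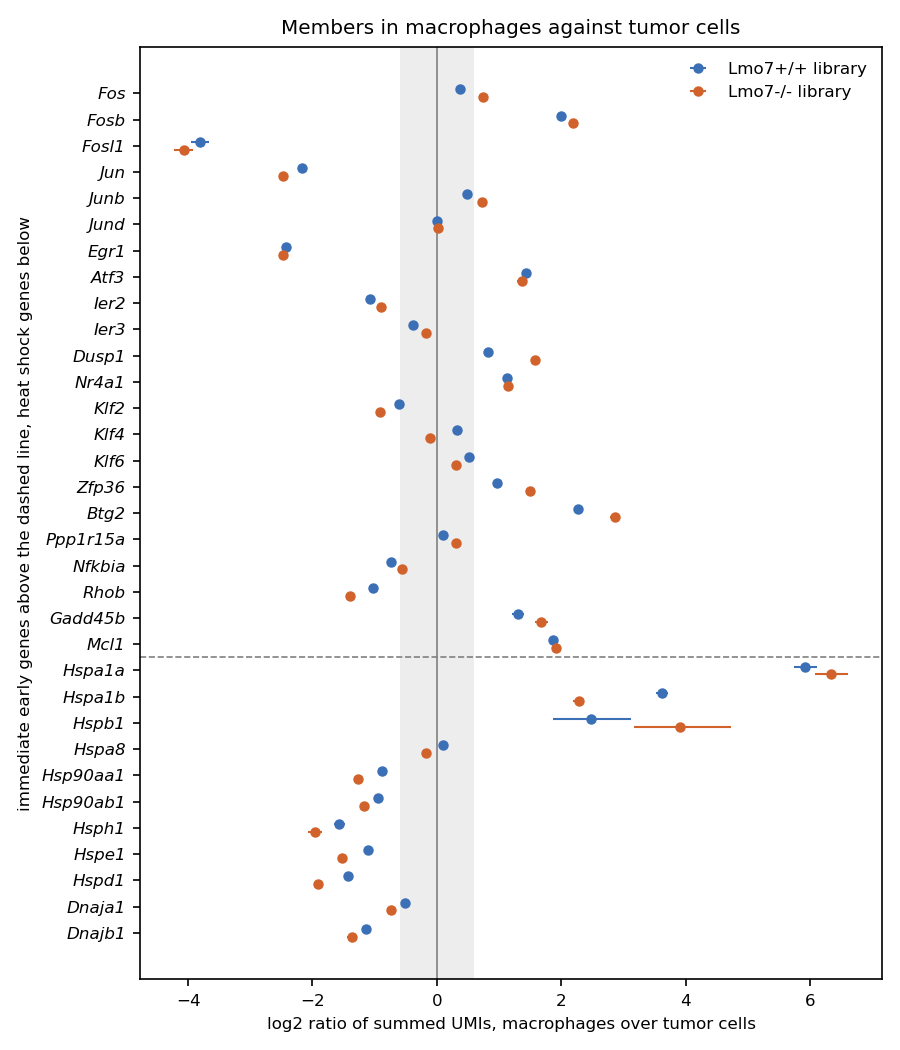
Log2 ratio of summed UMIs in macrophages over tumor cells for each member, with points for the Lmo7+/+ and Lmo7-/- libraries, bars for 95% counting intervals and a grey band for differences under 1.5-fold. *Hspa1a* lies farthest to the right at 5.92 and 6.34 and *Fosl1* farthest to the left at -3.81 and -4.07.

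The libraries were then compared within each class, as the log2 ratio of the library labelled Lmo7-/- over the Lmo7+/+ library. In macrophages no immediate early gene of 22 and 2 of 11 heat shock genes were called. *Hsph1* was lower, at 54.7 CPM (1233 UMIs) in the Lmo7+/+ library and 33.9 CPM (765 UMIs) in the other (-0.69, -0.82 to -0.56), where 2.58% of all genes were called lower. *Hspb1* was higher, at 3.19 against 5.99 CPM (0.91, 0.48 to 1.34), where 2.05% of genes were called higher, but this rests on 72 and 135 UMIs in 25 and 29 cells, and the ratio ranged from 0.84 to 2.73 over the alternatives. In the same cells the 10 fibroblast markers summed to 232 and 342 CPM (7 at 5 CPM in each library) and the 10 endothelial markers to 48.5 and 87.6 CPM (3 and 2), also higher in the second library, and their part in the *Hspb1* ratio was not tested. The immediate early genes had a median of -0.10 (14 of 22 below 0, from -0.47 to 0.26) and the heat shock genes a median of -0.27 (10 of 11 below 0), beside -0.09 for all 12574 genes. The largest differences among immediate early genes were those of *Fosb* (-0.47, -0.50 to -0.44) and *Egr1* (-0.44, -0.53 to -0.35). *Dusp1* had the highest value, 0.26 (0.21 to 0.31). *Hspa8* fell short of a call at 1672 and 1201 CPM (-0.48, -0.50 to -0.45). The counting interval lay below 0 for 10 of the 11 heat shock genes and 12 of the 22 immediate early genes. The same share over all genes was not counted, and intervals of genes with many UMIs are narrow. With TMM scaling the heat shock median was -0.17 and that of all genes 0.00, and *Jund* (-0.04), *Ier2* (-0.09) and *Mcl1* (-0.04) changed sign.

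Tumor cells, taken here as the implanted cells without the deletion, had 1 call among immediate early genes. *Fosb* was lower at 223 against 141 CPM (-0.66, -0.71 to -0.62), where 1.94% of genes were called lower. *Fos* stood at 683 and 471 CPM (-0.54, -0.56 to -0.51), *Btg2* at 71.5 and 47.9 CPM (-0.58), *Dusp1* at 147 and 104 CPM (-0.49) and *Egr1* at 562 and 429 CPM (-0.39), all lower by less than 1.5-fold. The stricter gate allows tumor cells no UMI of macrophage, T cell, B cell, mast cell or common leukocyte markers. With it the ratio of *Fosb* was -0.54, short of a call. *Jun* did not follow them, at 959 and 968 CPM (0.01, -0.01 to 0.03). The median of the immediate early genes was -0.18 and that of the heat shock genes -0.03, beside -0.04 for all 14158 genes. The paralogs *Hspa1a* and *Hspa1b* went opposite ways. *Hspa1a* was lower at 4.36 against 2.75 CPM (259 and 117 UMIs, -0.67, -0.99 to -0.35), and *Hspa1b* was higher at 18.7 against 35.4 CPM (0.92, 0.81 to 1.03), where 1.70% of genes were called higher. The ratio of *Hspa1a* was 0.34 with the stricter gate and 0.08 in cells with at most 5% mitochondrial UMIs, so its direction did not hold, and that of *Hspa1b* was 0.51 as a mean over cells.

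M-MDSCs gave the largest library differences. *Hspa1a* was at 283 CPM (487 UMIs) and 68.2 CPM (75 UMIs), a log2 ratio of -2.05 (-2.42 to -1.70), and *Hspa1b* at 273 and 64.6 CPM (-2.08, -2.46 to -1.71). *Hsph1* stood at 76.1 and 20.9 CPM (131 and 23 UMIs, -1.86, -2.57 to -1.22). With *Jun* (213 and 134 CPM, -0.67, -0.96 to -0.39), these were 3 of 10 heat shock genes and 1 of 21 immediate early genes called lower, where 3.56% of genes were. No member was called higher, where 2.45% of genes were. The ratio of *Jun* missed the fold with the stricter gate (-0.49), in clusters (-0.44) and after thinning (-0.40). All 11 heat shock genes and 13 of the 22 immediate early genes had a ratio below 0. The medians were -0.37 and -0.05, beside -0.06 for all 8315 genes. Few cells held most of these UMIs. For *Hspa1a*, 5 cells held 316 of 487 UMIs in the Lmo7+/+ library and 5 held 62 of 75 in the other, and for *Hspa1b* they held 274 of 469 and 64 of 71. Without the 5 cells richest in each gene in each library the ratio was -3.05 for *Hspa1a* and -4.15 for *Hspa1b*, larger but on the few UMIs left in the second library, and in cells with at most 5% mitochondrial UMIs -0.99 and -1.40, so the direction held in all 14 alternatives while the size varied. The 12 macrophage markers, all at 5 CPM or more, summed to 5792 and 6756 CPM in M-MDSCs, and their part in these ratios was not tested.

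T cells had 6 of 20 immediate early genes and 2 of 10 heat shock genes called lower, where 3.36% of genes were, and none called higher, where 1.51% were. *Zfp36* was at 285 and 171 CPM (391 and 315 UMIs, -0.74, -0.96 to -0.53). *Fos* was at 132 and 85.0 CPM (-0.64, -0.95 to -0.32), *Jun* at 120 and 79.0 CPM (-0.60, -0.93 to -0.27) and *Egr1* at 107 and 68.2 CPM (-0.64). *Dusp1* (150 and 94.7 CPM, -0.66) and *Ier3* (54.7 and 27.1 CPM, -1.02) were the others. The median of the immediate early list was -0.35, with 20 of 22 genes below 0, beside -0.14 for heat shock genes and -0.05 for all 9091 genes. Under TMM scaling the list median was -0.27 and 2 of 20 immediate early genes, *Zfp36* and *Ier3*, remained past 1.5-fold, while *Jund* (-0.02), *Klf6* (-0.08) and *Dnajb1* (-0.08) changed sign. Over 14 alternatives the 1.5-fold limit was passed in 13 for *Ier3*, 11 for *Zfp36*, 10 for *Fos* and *Egr1*, 8 for *Dusp1* and 7 for *Jun*, and the ratio of *Ier3* was 0.23 with the stricter gate. The macrophage markers summed to 252 CPM in T cells of the Lmo7+/+ library (7 of 12 at 5 CPM) and to 184 CPM in the other (6 of 12), and the 9 NK cell markers to 753 and 529 CPM (7 in each), both in the direction of the calls, while the 12 T cell markers summed to 8542 and 9923 CPM. Their part in these ratios was not tested. *Hspa1a* (121 and 48.7 CPM, -1.31) and *Hspa1b* (106 and 64.4 CPM, -0.72) depended on single cells: 141 of the 166 *Hspa1a* UMIs of the Lmo7+/+ library were in 5 cells and 83 in 1 cell. Without the 5 richest cells of each library the ratios were 0.17 and 0.13, with Scrublet doublets left out they were -0.0030 and 0.19, and with the stricter gate -2.74 and -1.48.

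**Figure D3:**
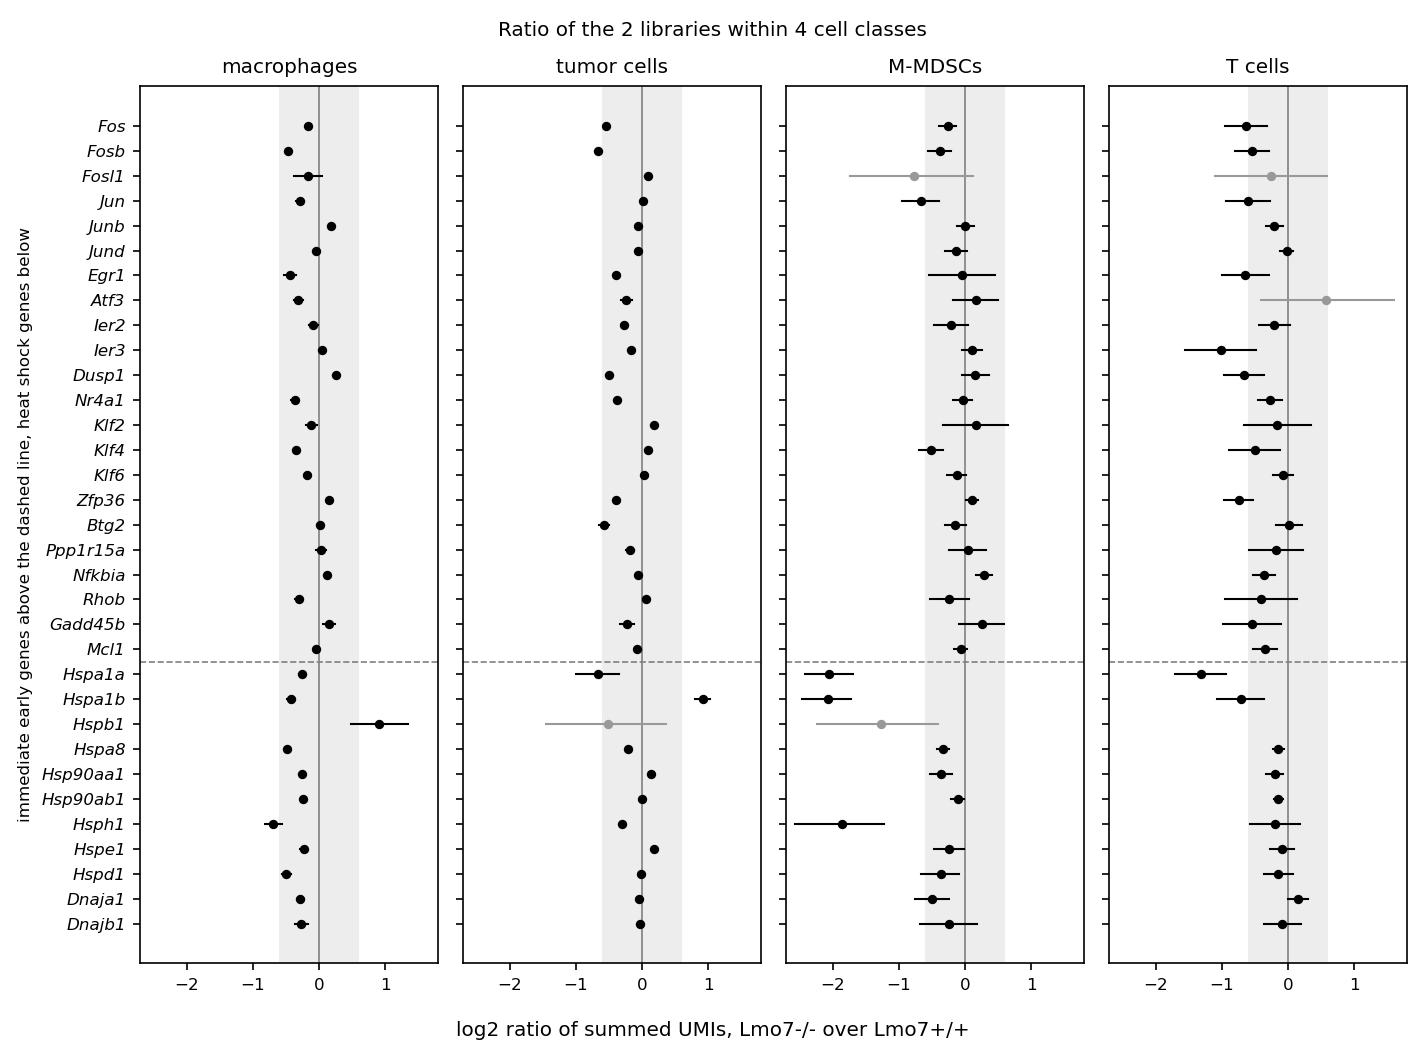
Log2 ratio of the library labelled Lmo7-/- over the Lmo7+/+ library for each member in macrophages, tumor cells, M-MDSCs and T cells, with bars for 95% counting intervals and a dashed line between immediate early and heat shock genes. The grey band covers differences under 1.5-fold, and grey points have fewer than 100 UMIs. Most immediate early genes in T cells lie left of 0 (20 of 22), and *Hspa1a*, *Hspa1b* and *Hsph1* lie near -2 in M-MDSCs.

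In the smaller classes fewer members had the 100 counts needed for a call. These were 17 immediate early and 8 heat shock genes in dendritic cells, 21 and 8 in fibroblasts and 20 and 8 in endothelial cells. In dendritic cells *Hspa1a* was higher, at 96.1 and 208 CPM on 57 and 94 UMIs (1.11, 0.62 to 1.61), where 2.26% of genes were called higher, and no member was called lower, where 3.77% were. In fibroblasts *Egr1* was lower (-0.86, -1.05 to -0.67), where 5.60% of genes were called lower, and *Gadd45b* (0.77) and *Dnajb1* (0.90, 0.58 to 1.22) were higher, where 6.97% were. The ratio of *Dnajb1* was 0.50 without the 5 richest cells. In endothelial cells *Atf3* (-0.83), *Ier3* (-0.73) and *Mcl1* (-0.66) were lower, where 6.22% of genes were (*Ier3* at -0.42 without its 5 richest cells), and *Hspa1a* (168 and 479 CPM, 1.51, 1.06 to 1.98) and *Hspa1b* (205 and 613 CPM, 1.58, 1.18 to 2.01) were higher, where 9.08% were. For both paralogs the endothelial ratio came from 65 and 60 cells, and it was 2.95 and 3.08 without the 5 richest cells. The 10 fibroblast markers summed to 513 CPM in endothelial cells of the Lmo7+/+ library and to 1430 CPM in those of the other (9 at 5 CPM in each), and their part in these ratios was not tested. In NK cells 5 of 33 members reached 100 UMIs over both libraries, and no comparison was made.

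How the UMIs of a gene were spread over cells was examined after thinning every cell to 1500 UMIs, which left out 344 and 445 macrophages, 710 and 614 tumor cells, 53 and 47 M-MDSCs and 100 and 156 T cells. *Fos* was detected in 57.4% (55.7% to 59.0%) and 54.7% (53.1% to 56.2%) of macrophages (81.7% and 77.1% before thinning), in 51.6% and 38.6% of tumor cells (78.5% and 67.6%) and in 15.2% and 10.6% of T cells (24.3% and 15.6%). *Hspa8* was in 87.0% and 78.3% of macrophages. A UMI of *Hspa1a* or *Hspa1b*, by contrast, was in 13.5% (12.4% to 14.7%) and 10.8% (9.83% to 11.8%) of macrophages, 9.52% and 4.78% of M-MDSCs and 4.01% and 5.71% of T cells. The stromal classes had higher shares, 29.3% and 37.3% of fibroblasts and 17.2% (8.59% to 29.4%) and 45.1% (31.1% to 59.7%) of endothelial cells. Tumor cells had 3.44% and 4.35%, and NK cells, of which few were left, 2.63% (0.0666% to 13.8%) and 8.70% (1.07% to 28.0%). The tumor cell shares were found at a median depth of 6195 and 5930 UMIs before thinning against 5102 and 4419 in macrophages, and no class known to lack these transcripts was available as background.

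Most macrophages with these transcripts held few of them, with 1 to 4 UMIs in 369 and 299 cells, and 121 and 139 cells held 5 or more. The 10% of macrophages richest in *Hspa1a* and *Hspa1b* held 95.8% and 98.8% of their UMIs. The same share was 47.0% and 44.7% for *Fos* and 25.9% and 29.8% for *Hspa8*. Single thinned macrophages held up to 127 and 84 UMIs of the pair. In tumor cells, the class with the most thinned cells, the richest had 10 and 8. A gene present in a low share of cells has a concentrated distribution by that alone, so the shares held by the richest cells describe each gene and do not rank the genes.

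**Figure D4:**
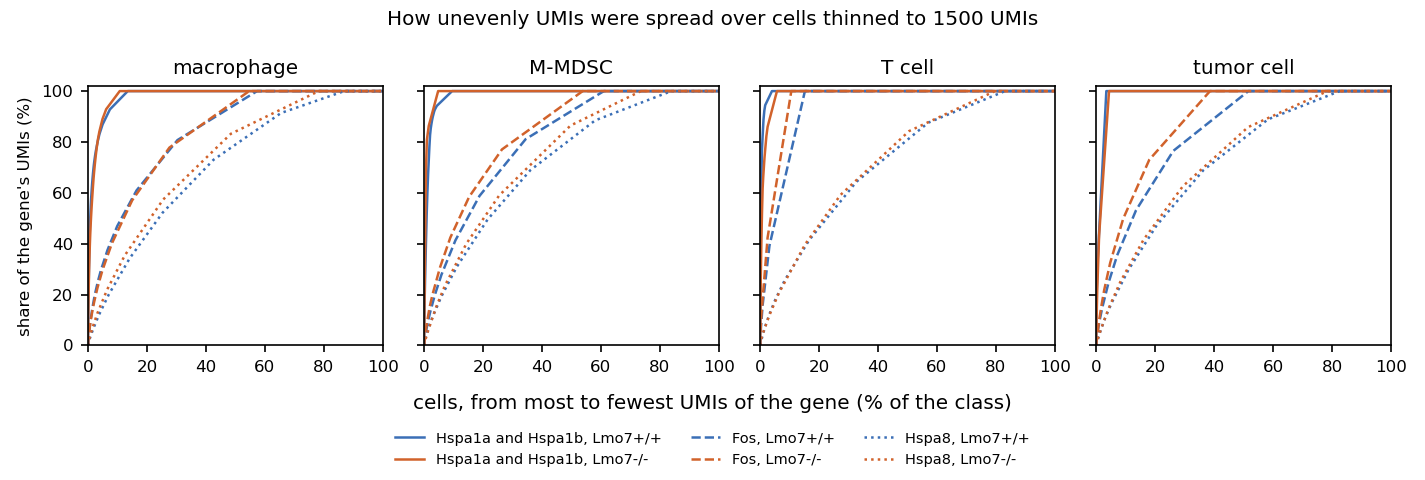
Share of the UMIs of *Hspa1a* and *Hspa1b* (solid), *Fos* (dashed) and *Hspa8* (dotted) held by a given share of cells, ranked from most to fewest UMIs, in thinned macrophages, M-MDSCs, T cells and tumor cells of the Lmo7+/+ (blue) and Lmo7-/- (orange) libraries. In macrophages the curve of *Hspa1a* and *Hspa1b* reaches 95.8% and 98.8% within the richest 10% of cells, and the curves of *Fos* and *Hspa8* rise more slowly.

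Macrophages with 5 or more UMIs of *Hspa1a* and *Hspa1b* after thinning numbered 121 of 3629 (3.33%) and 139 of 4067 (3.42%), and they held 80.4% and 81.3% of the UMIs of the pair in macrophages. The limit is a point on a continuous range, with 54 and 49 cells at 4 to 6 UMIs, and the cells were chosen by members, so what follows is a description. Log2 ratios were taken over the macrophages without a UMI of the pair. For all 1547 and 1726 genes with enough counts the median was -0.11 and -0.08, with 570 and 697 above 0. The other immediate early genes with enough counts had a median of 0.96 and 0.94, with 16 of 18 above 0 in each library. The other heat shock genes had a median of 0.90 and 1.17, with 6 of 6 above 0. These genes passed a limit on the UMIs of both groups together, which does not depend on the direction of a difference. Their highest ratios were 2.12 and 2.26 for heat shock genes and 2.76 and 2.78 for immediate early genes. *Hspb1*, *Hsph1*, *Dnajb1*, *Klf2* and *Gadd45b* were not among them. The genes named next needed only more than 3 UMIs in the cells rich in the pair, a limit that favors genes high there. *Hspb1* had ratios of 6.16 and 5.93, *Hsph1* of 3.97 and 3.81 and *Dnajb1* of 3.14 and 2.84. For *Hspb1*, 5 cells of each library held 36 of the 72 and 69 of the 135 macrophage UMIs. Among immediate early genes *Klf2* (3.01 and 2.84), *Jun* (2.76 and 2.48), *Atf3* (2.64 and 2.78) and *Fos* (1.72 and 1.69) were higher. *Fosb* differed less (0.40 and 1.00), and *Nfkbia* (-0.45 and -0.46), *Gadd45b* (-0.28 and -0.40) and *Ier3* (-0.34 and -0.07) were below 0.

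Depth and quality were set beside these values. The median depth of the cells rich in the pair was, before thinning, 5476 and 4557 UMIs against 5446 and 4864 in macrophages without the pair, their median mitochondrial share was 6.19% and 5.59% against 5.84% and 5.47%, and 31.4% and 27.3% had a UMI of a cell cycle gene against 35.4% and 28.4%. Scrublet marked 2 of 121 and 0 of 139 of them as doublets. In M-MDSCs 13 of 441 and 3 of 314 cells reached 5 UMIs, and in T cells 5 of 349 and 5 of 473, of which 2 in the Lmo7+/+ library were marked as doublets. The share of macrophages rich in the pair was 3.33% (2.77% to 3.97%) and 3.42% (2.88% to 4.02%). These intervals count cells, which are not replicates of a genotype. With a limit of 2 UMIs in place of 5, the share was 7.44% and 6.17%. The mean number of UMIs of the pair per thinned macrophage was 0.841 and 0.645.

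**Figure D5:**
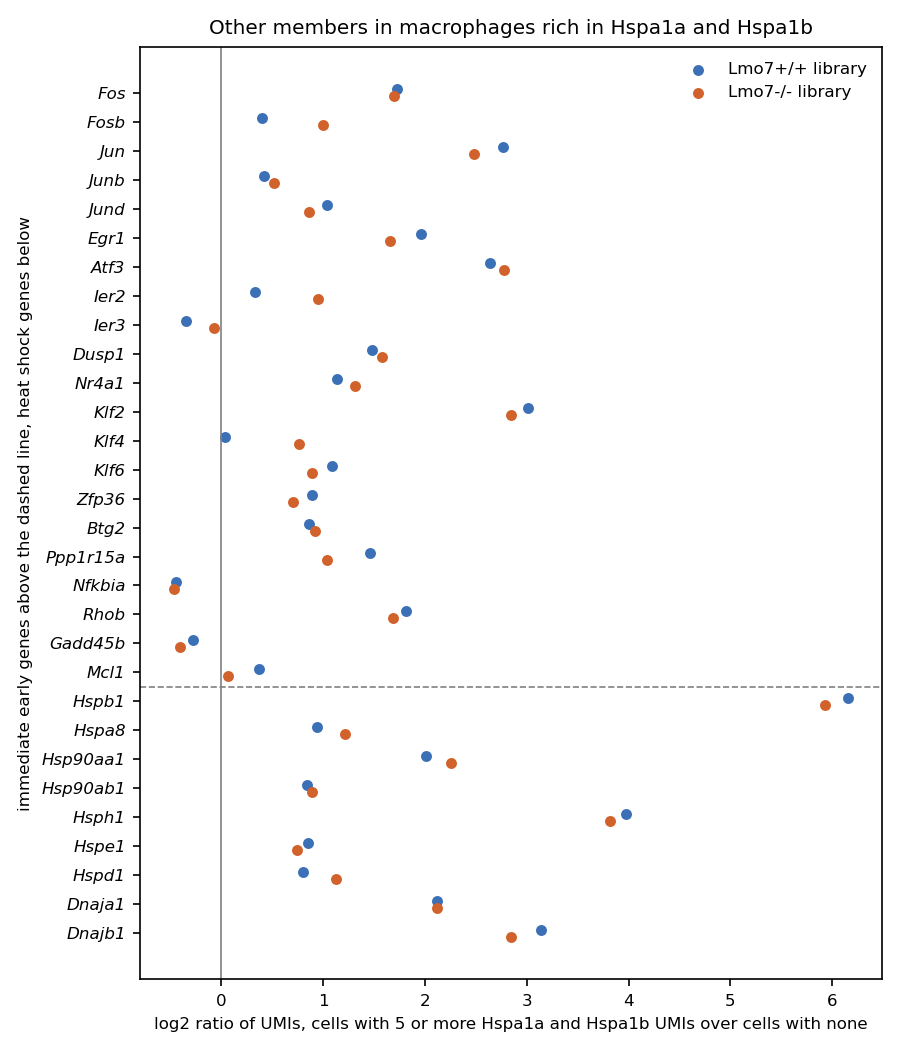
Log2 ratio of UMIs in thinned macrophages with 5 or more *Hspa1a* and *Hspa1b* UMIs over those with none, for the 30 other members with more than 3 UMIs in the former cells of each library, 1 point per library, with no replicates and no error bars. This limit favors genes that are high in those cells, so the points are read singly: *Hspb1* lies at 6.16 and 5.93, and *Nfkbia*, *Gadd45b* and *Ier3* lie left of 0.

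Across thinned macrophages the counts of *Hspa1a* and *Hspa1b* correlated at a Pearson r of 0.91 and 0.85 (3629 and 4067 cells), as genes with shared reads would too, and in tumor cells at 0.29 and 0.17 (5675 and 4162 cells). *Fos* and *Jun* correlated at 0.34 and 0.25 in macrophages and at 0.32 and 0.34 in tumor cells. The summed immediate early and heat shock lists correlated weakly, at 0.15 and 0.17 in macrophages and -0.18 and -0.10 in tumor cells. These values come from cells that share a library, a fixed depth and sparse counts, and they are given as descriptions. Tumor cells with a UMI of *Mki67*, *Top2a* or *Cdk1* had 0.75% and 0.67% immediate early UMIs and 0.72% and 0.72% heat shock UMIs. Tumor cells without had 0.97% and 0.90%, and 0.57% and 0.53%. In macrophages the immediate early UMIs were 0.85% and 0.80% with such a UMI, against 0.93% and 0.88% without. Their heat shock UMIs were 0.49% and 0.40% against 0.48% and 0.36%. The part of the cell cycle in the sign of the correlations was not tested. Depths differed as well between tumor cells with and without such a UMI (medians of 7702 and 7534.5 against 4086.5 and 3882.5 UMIs), and the part of depth was not tested.

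Genes on the further pathway lists of the next paragraph were left out of the following ranking as well as the members. Outside all these lists, the genes whose levels followed the immediate early sum most closely in macrophages were led by *Osm*. This gene, which encodes oncostatin M, had an r of 0.27 and 0.26 over 3973 and 4512 cells, and *Rasgef1b* (0.33 and 0.26) and the chemokines *Cxcl2* (0.29 and 0.23), *Ccl4* (0.31 and 0.22) and *Ccl3* (0.29 and 0.21) came next among 7333 genes. In tumor cells they were *Ccn1* (0.31 and 0.34), a matricellular gene that responds to serum, and the chemokine *Cxcl1* (0.31 and 0.33), followed by *Pnrc1* (0.31 and 0.31) and the collagen gene *Col6a2* (0.30 and 0.30), among 9225 genes. *Ccn1* is on the list of other immediate early genes under its older symbol *Cyr61*, which was not matched, so it was not left out. Among the genes ranked most like the heat shock sum of macrophages, none had an r above 0.21 in either library. The heat shock sum of tumor cells was followed by *Ncl* (0.34 and 0.36), *Npm1* (0.31 and 0.36) and *Ran* (0.30 and 0.32), which encode nucleolin, nucleophosmin and the transport GTPase Ran. Macrophage *Hspa1a* and *Hspa1b* were followed by *Ccl3* (0.22 and 0.20), *Ccl4* (0.25 and 0.20), *Rasgef1b* (0.19 and 0.18) and *Hmox1* (0.20 and 0.16), the heme oxygenase induced by oxidative stress.

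Further genes of the same pathways were followed from lists of 41 other immediate early genes, 38 other chaperones and 17 chaperones and stress genes of the endoplasmic reticulum (ER). Of all genes tested, the shares called higher and lower were 2.05% and 2.58% in macrophages, 1.70% and 1.94% in tumor cells, 2.45% and 3.56% in M-MDSCs and 1.51% and 3.36% in T cells. In macrophages 1 of 37 other immediate early genes with at least 100 counts was higher, *Irf1* (164 and 301 CPM, 0.88, 0.82 to 0.94), an interferon-induced factor, and 1 was lower, *Id1* (13.8 and 6.78 CPM, -1.03). In tumor cells 3 of 39 were lower, *Egr3* (-0.93), *Dusp2* (-0.90) and *Arc* (-0.79), and 1 was higher, *Id3* (1.37). In T cells 2 of 27 were lower, *Sgk1* (-0.85) and *Srf* (-0.69), and none was higher. In M-MDSCs *Irf1* was higher (277 and 426 CPM, 0.62), and *Fkbp4*, a cochaperone of HSP90, was the single called gene of 24 other chaperones (88.3 and 52.8 CPM, -0.74). No other chaperone was called in macrophages, tumor cells or T cells (0 of 36, 0 of 38 and 0 of 28), and no ER gene in these 4 classes (0 of 16 in each). The median log2 ratio of the other chaperones was -0.26 in macrophages, near the -0.27 of the heat shock members, and -0.13 for the ER genes, beside -0.09 for all genes.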

How the data were processed

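Libraries of live cells from MC38 tumors of Lmo7+/+ and Lmo7-/- mice, 1 each, were analysed from the raw UMI counts that the authors deposited per gene and cell after cell calling. The submitters' processing notes name Cell Ranger 2.1.1 and mm10, while the matrix headers name software version 3.0.0. Cells were required to have 500 genes, 1000 UMIs and a mitochondrial share of 15% or less. A cell took a host class when UMIs of that class's markers passed limits that were set after the data were seen, with no member gene among the markers (for macrophages at least 3 of 12 markers and 5000 marker UMIs per 1000000), and cells that met no rule or several rules were left out. Tumor cells were gated only by upper limits on the markers of other classes. Doublets were kept, and leaving out those that Scrublet marked was an alternative. Counts were summed per class and library and divided by their total (CPM). Genes with at least 20 counts over both groups compared received a log2 ratio, and a call needed 1.5-fold and 100 counts. Intervals (95%) are exact: Poisson for CPM, and Clopper-Pearson for percentages of cells and, applied to the part of a gene's counts that falls in 1 library, for ratios. They cover counting error only, and with 1 library per genotype no test was made. The alternatives were other filters on cells, Scrublet doublets, a stricter gate, clusters made without the genes of these pathways, a limit on mitochondrial UMIs, 3 other library sizes, 2 other minimum counts, thinning and means over cells. Leaving out the 5 cells richest in a gene was added after the data were seen. The members and lists were chosen with earlier results of these data known. All 33 members are accounted for. Values are given for each in its highest class and for those called, and at most 4 genes are named from each further list. Genes most like a list are those outside all lists with the highest lower r of both libraries. The ratio and interval steps were tested on simulated data. Python 3.11.15 (numpy 2.4.6, scipy 1.17.1, pandas 2.3.3, scanpy 1.11.5, igraph 0.11.9, matplotlib 3.10.9) was used, and TMM factors came from edgeR 4.0.16 in R 4.3.3.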

Additional observations from a re-analysis of the deposited data

Results flagged for a closer look

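The inducible HSP70 genes differed between the libraries in opposite directions depending on the class, each past 1.5-fold with at least 100 counts, and this drew attention to them. For *Hspa1a* the log2 ratio of the library labelled Lmo7-/- over the Lmo7+/+ library was -0.67 in tumor cells, -2.05 in M-MDSCs and -1.31 in T cells, but 1.11 in dendritic cells and 1.51 in endothelial cells. For *Hspa1b* it was -2.08 in M-MDSCs and -0.72 in T cells, but 0.92 in tumor cells and 1.58 in endothelial cells. With 1 library per genotype the difference between classes was not tested. Beside it stand the cells that carry these UMIs: 5 cells of the Lmo7+/+ library held 316 of 487 *Hspa1a* UMIs in M-MDSCs and 141 of 166 in T cells, 48 of 57 in dendritic cells and 44 of 55 in endothelial cells. In the other library 5 cells held 62 of 75 in M-MDSCs, 52 of 90 in T cells and 68 of 94 in dendritic cells. Without these cells the *Hspa1a* ratio was -3.05 in M-MDSCs, 0.17 in T cells and 1.96 in dendritic cells, and it was also larger in endothelial cells. The direction of *Hspa1a* in tumor cells did not hold, at 0.34 with the stricter gate.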

How the results depend on the processing

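The 12 list medians were recomputed under 13 alternatives, and the ratios of the genes called between libraries in macrophages, tumor cells, M-MDSCs and T cells under these and 1 chosen after seeing the data. Calls in the smaller classes were recomputed under the added one alone. Of the medians, 10 kept their sign throughout, and those of heat shock genes in tumor cells and of immediate early genes in M-MDSCs, both near 0, kept it in 10 and 11 of the 13. The cause of the shifts below was not tested. The immediate early median in macrophages was -0.0073 with TMM and -0.021 with median-of-ratios factors. That in tumor cells was -0.12 with the stricter gate, -0.10 in cells with at most 5% mitochondrial UMIs and -0.12 as a mean over cells, and the heat shock median in T cells was -0.29 with the stricter gate. For macrophages over tumor cells in the Lmo7+/+ library, the immediate early median was 0.71 (TMM), 0.74 (median-of-ratios), 0.31 (thinned) and 0.26 (mean over cells), and the heat shock median -0.91 (strict filter), -0.51 (TMM), -0.48 (median-of-ratios), -0.81 (thinned) and -0.84 (mean over cells). In the Lmo7-/- library the immediate early median was 0.51 (stricter gate), 0.18 (low mitochondrial share), 0.77 (TMM), 0.81 (median-of-ratios), 0.20 (thinned) and 0.21 (mean over cells), and the heat shock median -1.20 (strict filter), -1.22 (doublets left out), -0.91 (stricter gate), -1.21 (clusters), -1.24 (low mitochondrial share), -0.72 (TMM) and -0.68 (median-of-ratios). Ratios of called genes that changed sign were *Hspa1a* in tumor cells (0.34 with the stricter gate, 0.084 with a low mitochondrial share), *Ier3* in T cells (0.23 with the stricter gate), *Hspa1b* in T cells (0.19 with doublets left out) and, without the 5 richest cells, *Hspa1a* and *Hspa1b* in T cells (0.17 and 0.13). Uncalled ratios near 0 also changed sign under TMM: *Jund*, *Ier2* and *Mcl1* in macrophages, *Hsp90ab1*, *Hspd1* and *Dnajb1* in tumor cells, *Egr1* and *Nr4a1* in M-MDSCs and *Jund*, *Klf6* and *Dnajb1* in T cells.

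With 1 library per genotype, none was left out. No paired analysis was possible because the groups share fewer than 2 replicate numbers. Ratios on few UMIs, such as those of *Hspb1* outside stroma and of the members in NK cells, are limited by depth.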
